A study of Mus musculus with 18 samples.

Results

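Wild-type T cells of the mouse small bowel epithelium were compared with wild-type T cells of the underlying lamina propria in droplet single-cell RNA data. A cell counted as a T cell when it held at least 1 molecule (UMI, a transcript counted once) of Cd3e, a chain of the CD3 signalling complex, 0 of the B lineage gene Cd79a, 0 of the epithelial gene Epcam, and under 20% mitochondrial molecules. The gate found 2549 wild-type T cells, 2310 in epithelium and 239 in lamina propria, among 13396 gated T cells of all genotypes and tissues and 60272 cells in all. The study pooled St8sia6 knockout (KO), heterozygous (het) and wild-type (WT) cells, each with its own hashtag antibody, into shared captures, and each of 3 runs used 1 KO, 1 het and 2 WT mice, so a WT value stands for a pool of 2 animals. All cells had passed a Percoll gradient and bead enrichment for CD45, the pan-leukocyte surface protein, and were profiled from the 5′ end. The labels name no treatment, and strain, age and sex are not given in the sources used here. Genotype came from the hashtag: in each tissue 3 barcode endings had WT as the highest median hashtag, and the molecules of the T cells of each ending were summed, which gave 3 epithelial and 3 lamina propria sums.

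Intraepithelial lymphocytes lie between the enterocytes and are mostly CD8 T cells, with alpha-beta or gamma-delta receptors, that carry granzymes and the integrin CD103, which binds E-cadherin on enterocytes. The lamina propria holds mainly CD4 T cells, among them Th17 cells, which make IL-17 and IL-22, and regulatory T cells. Resident cells in general lack the programme of recirculating T cells that KLF2 and S1PR1 drive. The comparison asks how far RNA of T cells from the 2 layers of the same bowel wall differs in cells assigned to wild type by hashtag.

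The promoters of 5 genes that the results turn on are shown first, as the 250 bases before the start site from RefSeq (GRCm38.p6), written 5′ to 3′ on the gene's strand. They are 2 granzyme genes that were higher in epithelium, 2 Th17 cytokine genes that were lower, and the immediate early gene Nr4a1, which was lower. Capitals mark the letters TGTGGT or ACCACA (the core bound by RUNX factors) in the granzymes, AGGTCA or TGACCT (a half-site of nuclear receptors) in the cytokines, and TGACGCA or TGCGTCA (a form of the CREB and AP-1 element) in Nr4a1.
Gzmb (chr14:56262335-56262584, minus strand): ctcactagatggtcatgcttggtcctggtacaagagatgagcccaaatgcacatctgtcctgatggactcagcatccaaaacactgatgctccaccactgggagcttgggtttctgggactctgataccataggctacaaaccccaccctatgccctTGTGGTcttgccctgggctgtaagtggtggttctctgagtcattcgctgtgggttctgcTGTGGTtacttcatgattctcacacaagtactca
Gzma (chr13:113100982-113101231, minus strand): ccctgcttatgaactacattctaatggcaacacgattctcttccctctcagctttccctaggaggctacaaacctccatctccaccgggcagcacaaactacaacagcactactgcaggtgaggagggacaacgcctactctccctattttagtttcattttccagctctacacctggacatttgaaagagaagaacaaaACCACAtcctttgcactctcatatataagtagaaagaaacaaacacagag
Il17a (chr1:20730655-20730904, plus strand): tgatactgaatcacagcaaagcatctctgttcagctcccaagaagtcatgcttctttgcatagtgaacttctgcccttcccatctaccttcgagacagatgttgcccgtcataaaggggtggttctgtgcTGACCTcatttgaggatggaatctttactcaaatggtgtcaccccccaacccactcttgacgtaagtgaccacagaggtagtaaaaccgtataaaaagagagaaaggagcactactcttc
Il22 (chr10:118204714-118204963, plus strand): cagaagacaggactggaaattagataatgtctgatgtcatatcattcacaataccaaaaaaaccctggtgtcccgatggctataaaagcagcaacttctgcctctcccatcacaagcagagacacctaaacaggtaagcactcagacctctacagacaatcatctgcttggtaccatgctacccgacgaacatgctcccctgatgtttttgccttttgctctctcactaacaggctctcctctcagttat
Nr4a1 (chr15:101266596-101266845, plus strand): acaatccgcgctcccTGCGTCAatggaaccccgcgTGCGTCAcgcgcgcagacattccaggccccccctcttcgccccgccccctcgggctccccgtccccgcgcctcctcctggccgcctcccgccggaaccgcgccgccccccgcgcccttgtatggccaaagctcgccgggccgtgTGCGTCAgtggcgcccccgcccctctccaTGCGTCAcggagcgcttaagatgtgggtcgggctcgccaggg
The RUNX letters occur 2 times in the Gzmb window and 1 time in the Gzma window, and 14.0% of all 32851 windows of the same length hold them. The nuclear receptor letters occur 1 time before Il17a and 0 times before Il22, against 14.0% of all windows. Nr4a1 holds 4 matches of the third motif, which 1.75% of all windows hold. Each of the 5 windows was searched only for the letters assigned to its gene. The Il17a window also holds ACCACA, unmarked, so the RUNX letters do not set the granzymes apart from it. These matches describe letters in a window and were not tied to binding.

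The label was checked against T cell markers. A molecule of a T cell receptor constant gene was found in 95.1%, 93.6% and 96.9% of the epithelial T cells and in 78.6%, 90.8% and 71.7% of the lamina propria T cells. Cells with no molecule of Cd4, Cd8a or Trdc made up 8.62%, 9.59% and 5.29% of epithelial and 65.7%, 37.6% and 46.7% of lamina propria T cells, at medians of 4446 to 5206 molecules per T cell in epithelium and 2330.5 to 2820 in lamina propria. T cells were 36.8% ± 9.70 (SD, n = 3) of WT cells in epithelium and 3.09% ± 1.24 in lamina propria (two-sided exact permutation p = 0.1, the smallest that 3 against 3 sums allow). Of cells with Cd3e under the mitochondrial limit, the Cd79a and Epcam conditions kept 67.4%, 63.5% and 63.5% in epithelium. In lamina propria they kept 34.3%, 48.0% and 46.5%. The epithelial sums held 348, 469 and 1493 cells with 1707554, 2486456 and 6919148 molecules, and the lamina propria sums held 70, 109 and 60 cells with 177336, 346300 and 162022 molecules. Without these conditions the sums held 2861900, 4344614 and 11861350 molecules in epithelium and 2577989, 2519295 and 1193124 in lamina propria. How far this unequal loss shaped the T cell shares and the depth of the sums was not tested. The WT hashtag was the highest of the 3 in 98.0%, 95.7% and 100% of the epithelial and in 98.6%, 100% and 81.7% of the lamina propria T cells. Lamina propria replicate 3 stands apart, since the het hashtag was the highest in 18.3% of its T cells. Of its 60 T cells 32 had at least 80% of their hashtag molecules from WT. Of all cells of that ending 55.7% had WT as the highest hashtag, so the genotype of its cells is less sure. Libraries carry no label in the files and were inferred as the sets of endings that share no cell barcode. The absence of shared barcodes within a library therefore holds by construction. Over all pairs of endings 139 epithelial and 190 lamina propria barcodes recurred.

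T cells of the lamina propria carried plasma-cell RNA, which those of the epithelium had at a trace. Igha, Igkc and Jchain, which encode the heavy, light and joining chains of secreted IgA, made up 0.00562%, 0.00627% and 0.00958% of the molecules of the epithelial T cell sums and 1.97%, 1.90% and 2.22% of those of the lamina propria sums. The groups do not overlap (0.00716% ± 0.00212 against 2.03% ± 0.166, SD, n = 3, two-sided exact permutation p = 0.1, the smallest possible). A Jchain molecule was present in 100%, 99.1% and 100% of lamina propria T cells, with medians of 8, 7 and 13.5 molecules a cell, and in 8.05%, 5.33% and 11.1% of epithelial T cells. Cells without Cd3e in the same lamina propria endings gave 24.7% to 27.3% of their molecules to these genes. Of the 18 plasma cell markers 14 could be tested and 13 of them were lower in epithelium.

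**Figure D1:**
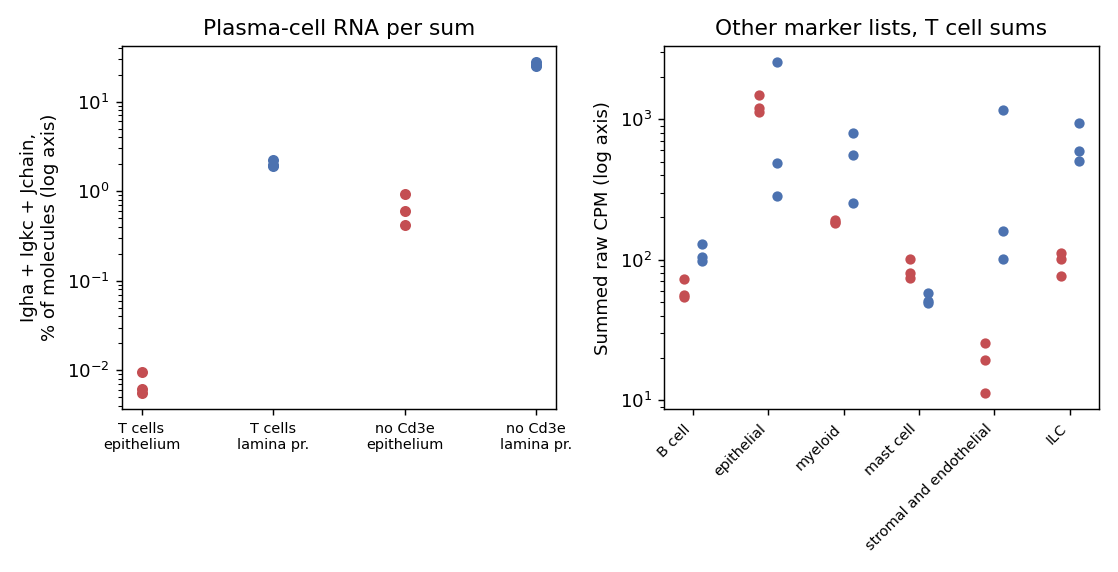
Left, share of molecules from Igha, Igkc and Jchain (percent, log axis) in WT T cells and in WT cells without Cd3e, 1 point per sum. Right, summed CPM of other marker lists in the T cell sums (log axis), red for epithelium and blue for lamina propria. Plasma-cell RNA is about 2% in every lamina propria T cell sum and under 0.01% in every epithelial sum.

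Markers of other cells also differed and are given here for the results they touch. The 29 epithelial markers summed to 1129 to 1483 unscaled CPM (molecules of a gene set to equal library totals) in epithelial T cells and to 286 to 2537 in lamina propria T cells, where replicate 3 was the highest with Defa24 (a Paneth cell defensin) at 2131 CPM scaled by TMM (trimmed mean of M values). Defa24 was lower in epithelium (log2 ratio -3.06), with a ratio of -0.20 without that replicate (edgeR adjusted p = 0.88). Myeloid markers (20 genes) summed to 183 to 191 CPM against 253 to 803, and 5 of the 6 tested were lower in epithelium. Stromal and endothelial markers summed to 11.3 to 25.3 CPM against 102, 1167 and 160.5, and lamina propria replicate 2 held 142 molecules of Dcn where the other lamina propria sums held at most 1. Of the 16 innate lymphoid cell markers, which share Il22 with the Th17 list, the summed level was 77.0 to 112 CPM against 502 to 944, and 3 of the 4 tested were lower in epithelium. The part of these cells in the results below was not tested, other than by the narrower gates that are named.

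Across the transcriptome 8761 genes passed a filter on low counts (filterByExpr) and were tested with edgeR's quasi-likelihood test on counts scaled by TMM, with Benjamini-Hochberg adjustment over all of them. At an adjusted p under 0.05, 709 genes (8.09%) were higher in epithelium and 1276 (14.6%) were lower, 1985 or 22.7% in all, and a log2 ratio below gives epithelium over lamina propria. Without TMM, on library sizes alone, the split turned to 1447 higher and 916 lower, and the median log2 ratio of all genes moved up by 0.26, so each ratio is to be read against that shift. Leaving out lamina propria replicate 2, the deepest of its group, left 1240 calls, and dropping the Epcam and Cd79a conditions gave 4872. Restricting the fit to cells with a T cell receptor constant molecule left 1811 calls, and to cells with under 2% plasma-cell RNA 1654. Without lamina propria replicate 3 and epithelial replicate 2, which had the lowest share of their own hashtag, 1620 genes were called, with log2 ratios of 2.31 for Gzmb, 1.86 for Itgae, -3.37 for Satb1 and -8.91 for Il22. Fewer T cells of a subset and less RNA per cell cannot be told apart in such sums.

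Coreceptor genes ran toward CD8 in epithelium. Cd8a, the alpha chain of CD8, measured 886, 1145 and 1114 CPM in the epithelial sums and 234, 217 and 194 CPM in the lamina propria sums. Every epithelial value lay above every lamina propria value, as was the case for 41.5% of all genes tested in either direction, and the log2 ratio was 2.28 (SE 0.16, edgeR adjusted p = 4.08e-08). Cd8b1, the beta chain of the alpha-beta coreceptor of conventional CD8 cells, had a log2 ratio of 1.95 (239, 216 and 397 CPM against 92.4, 59.1 and 83.3). Cd4 measured 51.1, 27.9 and 25.8 CPM in epithelium and 24.6, 184 and 167 CPM in lamina propria. The groups overlap through lamina propria replicate 1, whose sum holds 3 cells of the Cd4 gate, and the log2 ratio of -2.03 (adjusted p = 0.00154) lost its call without lamina propria replicate 2 (-1.44, adjusted p = 0.11). Trdc, the constant gene of the delta receptor chain, was higher in epithelium (log2 ratio 0.79, adjusted p = 0.019), but not past the threshold without lamina propria replicate 2 (0.78, adjusted p = 0.11) or 3 (0.75, adjusted p = 0.062). Of the 23 tested genes of receptor complex and signalling 6 were higher and 6 lower, and Cd28, the costimulatory receptor of naive T cells, fell by 2.65 on the log2 scale. Cd3e, which chose the cells, and its complex partner Cd3g had log2 ratios of 1.00 and 1.42.

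Shares of cells were taken after thinning cells to 1000 molecules, and shallower cells were left out, 9, 10 and 26 in epithelium and 6, 1 and 7 in lamina propria. A Cd8a molecule was then found in 54.0%, 61.7% and 63.0% of epithelial and in 17.2%, 16.7% and 9.43% of lamina propria T cells. Gzma was found in 74.0% ± 5.43 against 25.1% ± 7.93, Gzmb in 64.5% ± 2.42 against 17.2% ± 6.07 and Itgae in 54.2% ± 5.17 against 15.3% ± 3.74 (SD, n = 3). Of 15 subset genes 10 had shares that did not overlap, 8 with the higher share in epithelium and Il17a and Foxp3 with the higher share in lamina propria (two-sided exact permutation p = 0.1 for each, the smallest possible, adjusted 0.15). Thinned shares were not taken over all genes, so counts of genes without overlap have no background share beside them here. Foxp3 rests on 2, 1 and 1 lamina propria cells. Among cells with at least 80% of their hashtag molecules from WT, 8 genes did not overlap: Foxp3 (0%, 0% and 9.38% in lamina propria), Il17a (6.67%, 3.96% and 0%) and Ccr9 overlapped, and Ifng did not. Cd4 (3.65% ± 1.10 against 10.1% ± 6.03), Trac (25.1% ± 1.88 against 23.1% ± 3.93), Ifng and Mki67 were among those that overlapped. Plasma-like lamina propria cells, which should lack both genes, had Gzma in 2.27% to 2.47% and Cd8a in 0.115% to 0.607% of cells at the same depth, far under the T cells. Ccr9, a receptor for the small bowel chemokine CCL25, was found in 7.55% to 15.7% of lamina propria T cells and in 6.29% to 8.15% of plasma-like cells, and IgA plasma cells of the small bowel are known to carry this receptor too. In epithelium the 8 to 12 plasma-like cells per sum were too few, and epithelial-like cells had Gzma in 8.67% to 18.0% and Cd8a in 1.00% to 4.84%. Before thinning the shares were 73.0% to 85.9% and 20.0% to 28.4% for Cd8a, and 75.0% to 85.1% and 21.7% to 36.7% for Gzma.

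**Figure D2:**
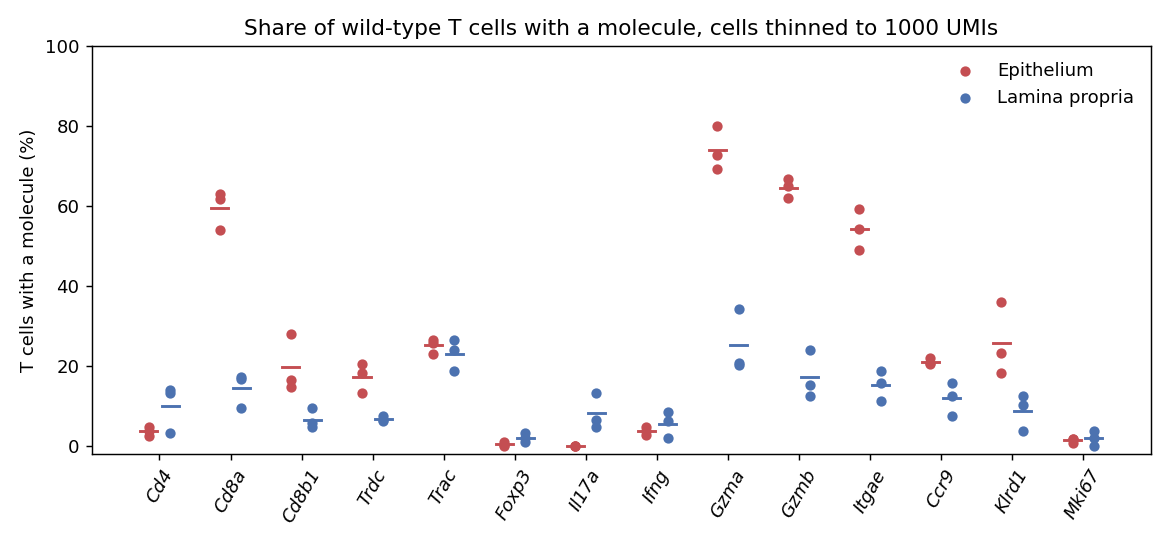
Share of WT T cells (percent, linear axis) with at least 1 molecule of each subset gene shown after thinning to 1000 molecules a cell, 1 point per sum and a bar at the mean, red for epithelium and blue for lamina propria. Cd8a, Gzma, Gzmb and Itgae stand apart between the layers, while the Trac points overlap.

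Cytotoxic genes were higher in epithelium. Gzmb, a granule protease that triggers apoptosis in target cells, measured 2779, 2969.8 and 3334 CPM in epithelium and 406, 788 and 444 CPM in lamina propria. The groups were far apart (log2 ratio 2.42, SE 0.20, edgeR adjusted p = 1.58e-07). Gzma, a granule tryptase, measured 12281, 13943 and 16049 CPM against 1964, 3683 and 3207 CPM, also without overlap (2.25, SE 0.19, adjusted p = 2.65e-07). Gzmk, a further tryptase of memory T cells, was 6.87-fold higher (177, 157 and 142 CPM against 12.3, 23 and 34.7). In all 9 of the 18 tested genes of cytotoxic granules were higher and 3 lower, with a median log2 ratio of 1.00 against 0.05 over all genes tested. Prf1, the pore-forming partner of the granzymes, is a member chosen for mention after its value was seen and did not pass (log2 ratio 0.73, adjusted p = 0.114). Runx3, a RUNX factor of CD8 and intraepithelial cells, had a log2 ratio of 0.51 (edgeR adjusted p = 0.0223). It lost its call without lamina propria replicate 1 (0.49, adjusted p = 0.068) or 2 (0.54, adjusted p = 0.079). Runx1, another RUNX factor, was lower in epithelium, as given below. A link between these factors, the RUNX letters printed above and the granzymes was not tested.

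**Figure D3:**
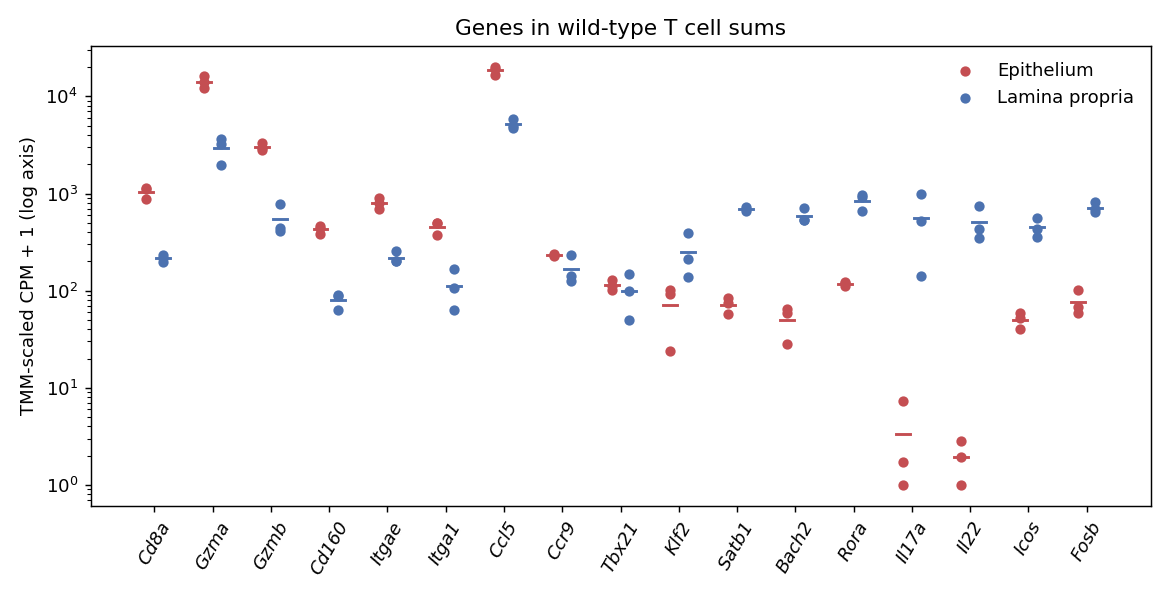
TMM-scaled CPM plus 1 (log axis) of 17 genes in each WT T cell sum, 3 points per layer with a bar at the mean, red for epithelium and blue for lamina propria. Gzmb runs from 2779 to 3334 in epithelium and from 406 to 788 in lamina propria, and Il22 reaches at most 1.84 CPM in epithelium and at least 345 CPM in lamina propria.

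Receptors typical of intraepithelial and natural killer cells were higher as well. Cd160, a receptor for HVEM on intraepithelial lymphocytes, measured 467, 438 and 386 CPM in epithelium and 86.2, 62.4 and 90.2 CPM in lamina propria (log2 ratio 2.50, SE 0.20, adjusted p = 1.17e-07, edgeR), with no overlap. Cd244a, the receptor 2B4 for CD48, was 6.49-fold higher and Klrd1, the CD94 chain of NKG2 receptors, 3.7-fold higher. Fcer1g, a signalling adaptor found in innate-like intraepithelial cells, had a log2 ratio of 1.01 (553, 660.0 and 488 CPM against 296, 200.2 and 389). Among 13 tested natural killer receptor genes 5 were higher and 0 lower, and of the 24 tested genes of the intraepithelial programme 16 were higher and 3 lower (median log2 ratio 1.14). Ccl5, a chemokine that T cells store for rapid release, measured 16444, 19175 and 20178 CPM against 4938, 5909 and 4747 CPM. Inhibitory receptors were divided, with 5 of 14 higher, among them Cd200r1 (1.85), and 4 lower, among them Ctla4, which fell by 2.04 on the log2 scale.

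Homing and residency genes moved in both directions, 7 of 20 higher and 9 lower. Itgae, the alpha chain of CD103, measured 689, 789 and 900.4 CPM in epithelium and 252, 200.2 and 201 CPM in lamina propria (log2 ratio 1.88, SE 0.17, edgeR adjusted p = 4.48e-07). No lamina propria sum came near the epithelial ones. Itga1, the collagen-binding chain of VLA-1, had a ratio of 1.90, and Jaml, an adhesion molecule that binds CAR on epithelia, one of 1.76. Ccr2, a receptor for inflammatory chemokines, was 13.9-fold lower in epithelium. Ccr9 did not pass (0.38, adjusted p = 0.173, 227, 235 and 231 CPM against 142, 233 and 125).

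Genes of naive and recirculating T cells were lower in epithelium. Of 14 tested 8 were lower and 0 higher, with a median log2 ratio of -1.72. Satb1, a chromatin organiser of thymocytes and naive T cells, measured 82.1, 73.5 and 55.9 CPM against 727, 663 and 687 CPM (log2 ratio -3.32, SE 0.16, edgeR adjusted p = 4.02e-10). Bach2, a repressor that holds back effector programmes, was 12.5-fold lower (58.2, 63.2 and 26.9 CPM against 702, 529 and 534). Il7r, the receptor for the survival cytokine IL-7, fell by 1.53 on the log2 scale. Klf2 measured 100.1, 90.5 and 22.7 CPM against 388, 213 and 139 (log2 ratio -1.91, adjusted p = 0.00998), and without lamina propria replicate 1 it no longer passed (-1.49, adjusted p = 0.096).

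Th17 genes were lower in epithelium by wide margins. Il22, a cytokine that acts on epithelial barrier cells, measured 0, 1.84 and 0.961 CPM in epithelium and 345, 430.0 and 743 CPM in lamina propria, 12 molecules against 294. Its log2 ratio was -8.84 (SE 0.36, edgeR adjusted p = 6.36e-11). Il17a, the signature cytokine of Th17 cells, measured 0, 0.735 and 6.32 CPM against 142, 519 and 999 CPM (-7.12, SE 0.57, adjusted p = 1.15e-07). Lamina propria replicate 1 was the lowest and replicate 3 the highest of its group for both cytokines, and neither group touched the other in these sums. Replicate 3 is the ending of less sure genotype, where 32 of 60 T cells had at least 80% WT hashtag molecules. Among cells that met this limit the Il17a shares of the 2 layers overlapped, as given above. Il1r1, the IL-1 receptor of Th17 cells, was 95.2-fold lower and Rora, a nuclear receptor of Th17 cells, 7.3-fold lower (121, 109.6 and 119 CPM against 653, 916 and 972). In all 12 of 14 tested Th17 genes were lower in epithelium and 0 higher, with a median of -3.42. Il22 is also a marker of innate lymphoid cells, and in cells with a T cell receptor constant molecule the ratios were -9.48 for Il22 and -7.17 for Il17a. In cells with under 2% plasma-cell RNA they were -9.07 and -7.27. Among cells with at least 80% WT hashtag molecules Il17a had a ratio of -5.32 (adjusted p = 8.68e-07), and Il22 did not pass the low-count filter there.

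Regulatory T cell and type 2 genes were lower in epithelium. Of 13 tested genes of the regulatory T cell list 11 were lower, among them Icos, a costimulatory receptor (57.6, 50.7 and 39.0 CPM against 357, 558 and 430.3, log2 ratio -3.27), Tnfrsf4, the receptor OX40 (-3.68), and Il10, an anti-inflammatory cytokine (-3.87). Foxp3 itself held 36 molecules in epithelium and 12 in lamina propria and was not tested. Type 2 genes were lower in 4 of 5, with Il4 at 24.6, 16.4 and 146 CPM in lamina propria and 2.18 or less in epithelium, and genes of B cell help in 3 of 7, while 4 did not pass, with Cd40lg, the ligand that activates B cells, 5.85-fold lower. The Th1 list was divided, 3 of 15 higher and 6 lower. Its receptor genes Il18r1 (-4.33) and Il18rap (-3.81), the chains of the IL-18 receptor, were lower, while Ifng (26.1, 39.7 and 51.2 CPM against 30.8, 91.9 and 34.7) and its regulator Tbx21 (129, 111 and 99.97 CPM against 148, 98.5 and 48.6) overlapped and did not pass, at log2 ratios of -0.56 and 0.17 (adjusted p = 0.329 and 0.694). The sign of these last values changed when single lamina propria sums were left out. The median of the Th1 list, -0.23, became 0.03 on library sizes alone.

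**Figure D4:**
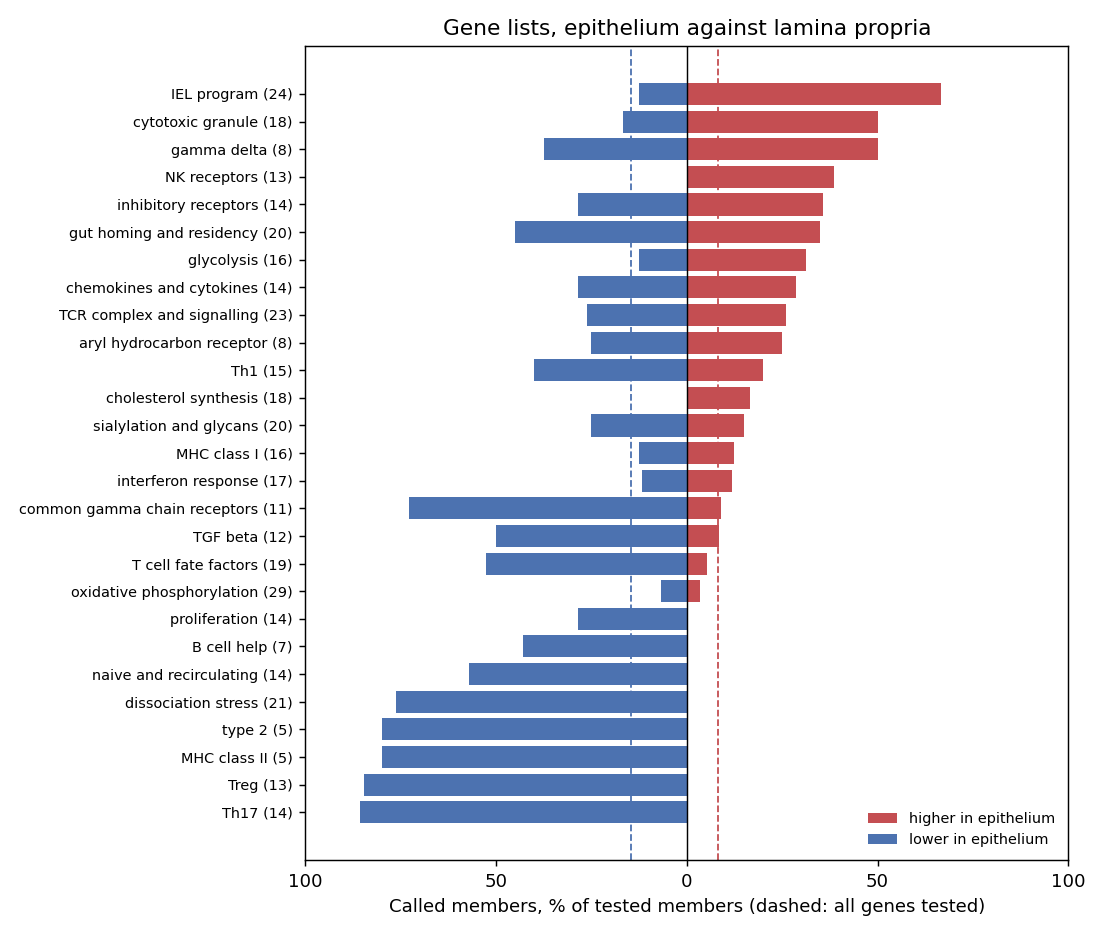
Share of the tested members of each gene list (number tested in brackets) called higher (red, right) or lower (blue, left) in epithelium, in percent, with dashed lines at the 8.09% and 14.6% of all genes tested. The intraepithelial, cytotoxic and natural killer receptor lists reach far right, and the Th17 and regulatory T cell lists far left.

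Of 11 tested genes of the common gamma chain receptors 8 were lower and 1 higher, with Stat5b, the transducer of IL-2, IL-7 and IL-15 signals, at 179, 179 and 173 CPM against 622, 594 and 694 (log2 ratio -1.83), and Il4ra at -1.67. Of 12 tested TGF-beta genes 6 were lower, 1 was higher and 5 did not pass, with Smad3, a signal transducer of the pathway that induces CD103, at 19.6, 21.3 and 18.8 CPM against 135, 125 and 97.2 (-2.61). Among 19 tested T cell fate factors 10 were lower and 1 higher, Runx1 by 1.78 and Maf by 2.87 on the log2 scale. The list of dissociation stress and immediate early genes had 16 of 21 lower and 0 higher. Fosb, a subunit of AP-1, measured 100.1, 67.7 and 58.5 CPM against 689.7, 647 and 812 (-3.28), and Nr4a1, an orphan receptor induced by T cell receptor signals whose promoter is printed above, 96.8, 94.1 and 75.1 CPM against 234, 384 and 249.9 (-1.79, SE 0.19, adjusted p = 3.38e-06, edgeR). The tissue layer and the handling of that layer cannot be told apart in this design.

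Metabolic and antigen presentation lists were mixed, beside 8.09% of all genes tested that were higher and 14.6% that were lower. Oxidative phosphorylation had 1 of 29 higher and 2 lower, with a median of -0.01 that became 0.25 on library sizes alone, and cholesterol synthesis 3 of 18 higher, among them Fdps, which makes farnesyl pyrophosphate (1.70, 140.3, 130.2 and 114 CPM against 30.8, 46.0 and 34.7). The Fdps ratio turned to -0.42 with no condition on Epcam and Cd79a. The glycolysis list had 5 of 16 higher, with the enzymes Aldoa (1.11) and Ldha (0.71), and 2 lower, the regulator Hif1a (-1.70) and Hk2 (-3.53), the hexokinase of the first step. Class I presentation had 2 of 16 higher, the immunoproteasome subunits Psmb8 (1.11) and Psmb9 (0.90), and 2 lower, B2m (-0.63) and H2-Q6 (-0.66). Class II genes, which B cells and myeloid cells express, were lower in 4 of 5, with Cd74 at 83.2, 57.0 and 103 CPM against 831, 821 and 271. The interferon response had 2 of 17 higher and 2 lower. Both this list and class I presentation lie near the shares of all genes tested, so their counts do not set them apart. Proliferation genes had 4 of 14 lower, with Pcna, the polymerase clamp, at -1.14.

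Sialic acid genes, the pathway of the enzyme deleted elsewhere in the study, had 3 of 20 tested higher and 5 lower. Of all genes tested 8.09% were higher and 14.6% lower, and the list was not tested as a set. St8sia6, which adds alpha-2,8-linked sialic acid, measured 4.35, 2.21 and 1.24 CPM in epithelial and 30.8, 19.7 and 20.8 CPM in lamina propria T cells, from 23 and 14 molecules. The groups do not overlap (log2 ratio -3.42, SE 0.75, edgeR adjusted p = 0.00319), yet few molecules carry the value. St6galnac3, which sialylates mucin-type glycans and gangliosides, was 3.22-fold lower at 204, 242 and 238 CPM against 739, 742 and 729, and St6gal1, which caps N-glycans with alpha-2,6-linked sialic acid, was 7.58-fold lower. B4galnt2, which builds the Sda antigen of the gut, was 4.87-fold higher (30.5, 38.6 and 47.4 CPM against 12.3, 6.57 and 6.94) and lost its call without lamina propria replicate 2 (log2 ratio 2.08, adjusted p = 0.053).

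Among genes with at least 50 CPM in a layer and no overlap, the largest ratios outside variable receptor genes and other cell types' markers name further members of both sides. Fcgbp, a mucus protein gene of goblet cells, held 692 molecules in epithelium and 0 in lamina propria, at least 11.9-fold higher against a floor of 3 molecules over the group. Rbp2, a retinol-binding protein of enterocytes, held 771 and 2 molecules, a ratio of raw rates of 23.8 (95% interval 6.56 to 197, counting error only), and its log2 ratio of 4.21 turned to -0.50 when the gate had no condition on Epcam and Cd79a. Both are epithelial genes by background, beside the 11 of 26 tested epithelial markers that were higher and 1 that was lower, such as Apoa1 (171, 131 and 121 CPM against 0, 3.28 and 0). Coro1b, an actin regulator, was 7.37-fold higher at 108, 119 and 101 CPM against 12.3, 16.4 and 13.9. The rule also named Capn3 (3.25), AI467606 (2.76), Apol7e (2.70), 2900026A02Rik (2.66), Tspan9 (2.64) and Cited4 (2.63) on the higher side. On the lower side stood Gm30211, Il17rb, the receptor for IL-25, Mef2c, Ablim3, Ppp1r14c, Plekhg1 and Epas1, the hypoxia factor HIF-2alpha, with log2 ratios from -7.78 to -5.65. Cxcl2, a neutrophil chemokine, and Slpi, a secreted protease inhibitor, held 2 and 3 molecules in epithelium against 60 and 38, ratios of raw rates of 486 (95% interval 129 to 4107) and 205 (65.1 to 1040).

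The comparison was repeated inside coreceptor gates, since the mix of subsets differed between layers. Cells with Cd8a and neither Cd4 nor Trdc numbered 135, 166 and 927 in epithelium and 12, 23 and 12 in lamina propria. This gate did not hold the mix fixed, since 81, 89 and 675 of them held Cd8b1 in epithelium and 4, 5 and 6 in lamina propria. Their median molecules per cell were 4447 to 4960.5 in epithelium and 2630 to 2866 in lamina propria. How often Cd4 or Trdc was missed at these depths was not tested. Here 214 of 5521 genes (3.88%) were higher and 265 (4.8%) lower, 479 or 8.68% in all. Without lamina propria replicate 1 this fell to 311 calls, and without replicate 2 to 232, of which 122 were higher and 110 lower. Within these cells Gzmb had a log2 ratio of 1.88 (adjusted p = 3.07e-08, edgeR), Gzma of 1.07, Itgae of 1.26, Cd160 of 1.88 and Cd8b1 of 1.70, and Satb1 of -3.50, Bach2 of -4.37, Klf2 of -3.80 and Fosb of -2.40, all past the threshold. Psmb8 was 1.68 and Fdps 1.91, while Il7r (-0.37, adjusted p = 0.509) and Ifng (-0.39, adjusted p = 0.736) did not pass. Igha stayed at -7.59 inside the gate.

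Cells with Cd4 and neither Cd8a nor Trdc numbered 30, 27 and 48 in epithelium and 29 and 13 in lamina propria replicates 2 and 3, with replicate 1 left out at 3 cells. Of 2988 genes 76 (2.54%) were higher and 230 (7.7%) lower by edgeR, 306 or 10.2% in all, and 158 were called in all by DESeq2, 22 higher and 136 lower. Without epithelial replicate 1 or 2 edgeR called 166 and 190 genes, and without lamina propria replicate 2 it called 165. Gzma and Gzmb did not pass here (0.13 and -0.14, adjusted p = 0.898 and 0.9), whereas Cd160 (2.92, adjusted p = 0.0146), Ccl5 (1.62) and Coro1b (2.39) were higher. Il22 (-5.81), Il17a (-4.52), Rora (-2.31), Bhlhe40, a cytokine-promoting factor (-2.62), Icos (-1.27), Satb1 (-1.08) and Fosb (-2.22) were lower. Klf2 was higher in this gate, at a log2 ratio of 1.57 (adjusted p = 0.0216), and lower in the Cd8a gate. Whether the ratios differ between the gates was not tested.

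**Figure D5:**
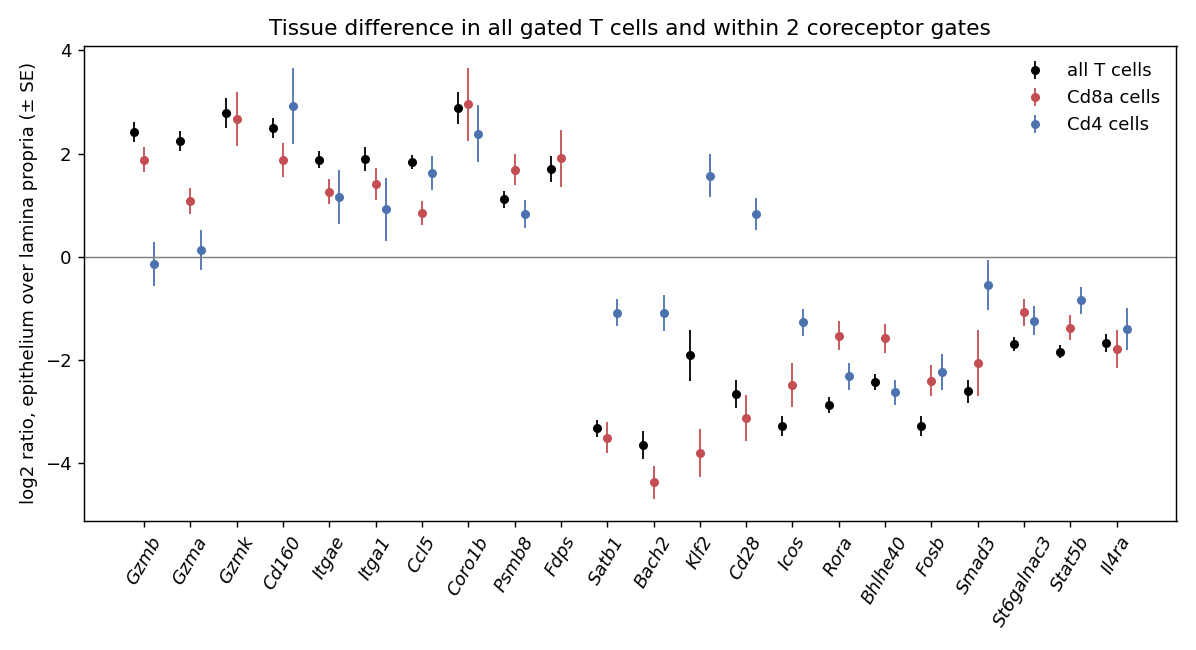
Log2 ratio of epithelium over lamina propria with its standard error for 22 genes in all gated T cells (black), in Cd8a cells (red) and in Cd4 cells (blue), with no point where a gene was not tested. Satb1 and Fosb lie below 0 in all 3 sets, while Klf2 lies at -3.80 in Cd8a cells and at 1.57 in Cd4 cells.

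Cells with Trdc and neither Cd4 nor Cd8b1 numbered 133, 198 and 362 in epithelium, and of lamina propria 1 sum of 15 cells was left, so the test takes the spread of that sum from the epithelial sums. Of 9339 genes 24 (0.257%) were higher and 89 (0.953%) lower, 113 or 1.21% in all. Without epithelial replicate 1 or 3 the calls were 199 and 221, and with no low-count filter 370. Gzmb (1.22, edgeR adjusted p = 0.0147), Gzma (1.24), Itgae (1.36) and Cd160 (2.07) were higher, and Satb1 (-3.43), Bach2 (-3.28), Rora (-2.53) and Stat5b (-2.03) lower. Dcn and Col3a1, fibroblast genes, were lower as well, with 0 molecules in epithelium and 16 and 28 in the lamina propria sum, which is replicate 2, the replicate with the stromal RNA.

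KO and het cells had passed through the same captures and gave their own contrast between the layers. In KO T cells 1909 of 10957 genes (17.4%) were higher in epithelium and 2507 (22.9%) lower, 40.3% in all. In het T cells these were 1559 (15.4%) and 1902 (18.8%) of 10142, 34.1% in all. The lamina propria sums held 568722, 712904 and 913989 molecules in KO and 688295, 515321 and 255748 in het, against 162022 to 346300 in WT. The counts of calls are thus not at equal depth, and the part of depth in them was not tested. The log2 ratios of Gzmb were 2.42 in WT, 1.99 in KO and 1.89 in het sums, those of Itgae 1.88, 1.94 and 1.69, and those of Satb1 -3.32, -3.51 and -3.06. Il22 had -8.84, -4.71 and -4.39, with an adjusted p of 0.0993 for the difference between WT and the mean of the others. When this difference was tested across 10553 genes by edgeR with the inferred library as a block, 828 had an unadjusted p under 0.05. Past the adjusted threshold were 5 genes (0.0474%), 3 (0.0284%) with a higher and 2 (0.0190%) with a lower ratio in WT. Fosb was among them: its ratio of -3.28 in WT lay below those of -2.03 in KO and -1.95 in het sums (difference -1.19, adjusted p = 0.0156). Without the library block 0 genes passed, 736 had an unadjusted p under 0.05, and the Fosb difference was -1.25 (adjusted p = 0.384), while DESeq2 with the block called 20 genes and gave Fosb -1.22 (adjusted p = 0.000211). In unscaled CPM the KO sums ran from 86.3 to 188 in epithelium and from 420.1 to 469 in lamina propria, and the WT sums from 61.6 to 108 and from 569 to 722.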

How the data were processed

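The authors deposited raw UMI counts per gene and cell for each tissue, with hashtag antibody counts in matching matrices, and gene and barcode names beside them. Per the submitters' processing notes, reads passed through Cell Ranger and Seurat with mm10, with no versions in the sources used here. The T cell gate, genotype per barcode ending and sums followed the rules given above. The members and gene lists were chosen with earlier results of these data known. Sums were tested with edgeR 4.0.16 (quasi-likelihood, TMM, filterByExpr) in R 4.3.3, adjusted over all genes tested (Benjamini-Hochberg). Subset sums needed 10 cells. DESeq2 1.42.0, other scalings, filters and gates, and leaving out each sum were alternatives. The code was checked on simulated counts. Doublets were not called; the Cd79a and Epcam conditions removed cells with those molecules. Shares of cells were compared after thinning to 1000 UMIs with exact permutation tests. Intervals and floors cover counting error. Endings carry no run label, so replicates are numbered in order of endings and p-values measure the spread between these sums. Named genes were the 12 largest called ratios each way (at least 50 CPM, no overlap, no receptor variable genes or markers of other cells), up to 4 called members per list by smallest p, a fixed set of 17 T cell genes and the 3 most abundant markers per other cell type. Results of 2 genes that entered the fits and counts are not reported here.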

Additional observations from a re-analysis of the deposited data

Results flagged for a closer look

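For 5 genes the difference between the layers in WT sums differed from that in KO and het sums (edgeR with the library as a block, Benjamini-Hochberg over 10553 genes), with the difference on the log2 scale. The difference was 5.78 for Igkv12-89 (adjusted p = 0.00698) and -3.30 for Igkv1-88 (adjusted p = 0.00698). Both are immunoglobulin kappa variable genes, and single sums held most of their molecules in epithelium: 135 of Igkv12-89 in WT replicate 3 and 1032 of Igkv1-88 in KO replicate 3. Tmem252, which encodes a membrane protein, had a fitted difference of 11.89 (adjusted p = 0.00765). It held 0, 0 and 0 molecules in the WT lamina propria sums, 85, 31 and 12 in het and 97, 105 and 20 in KO. The WT epithelial sums held 8, 5 and 13, or 4.69, 2.01 and 1.88 unscaled CPM. A floor of 3 molecules over WT lamina propria is 4.38 CPM. With a WT lamina propria count of 0, the size of 11.89 is not a measured fold. Ly6c1, which encodes a surface antigen of the Ly6 family, differed by 6.76 (adjusted p = 0.0095). It had 0, 1 and 0 molecules in WT lamina propria against 38, 21 and 7 in het and 33, 74 and 20 in KO, and 7, 4 and 3 in WT epithelium. The size of the Ly6c1 difference thus rests on 1 WT lamina propria molecule. Fosb differed by -1.19 (adjusted p = 0.0156). Without the library block none of the 5 passed (0 calls in all, 736 genes at an unadjusted p under 0.05), with adjusted p from 0.384 for Fosb, Igkv12-89 and Tmem252 to 0.926 for Igkv1-88. By DESeq2 with the block, which called 20 genes, Igkv1-88 did not pass (adjusted p = 0.436) and Ly6c1 had no adjusted p, while the other 3 passed. No cause was tested.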

How the results depend on the processing

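No paired analysis was possible because the barcode endings carry no run label that ties an epithelial sum to a lamina propria sum. Of 2647 refitted values of 134 named genes over 20 settings, 2534 kept direction and side of the threshold, 90 lost it, 9 gained it and 14 reversed. Leaving out each sum in turn gave 1240 to 1851 calls for all T cells, 232 to 413 in the Cd8a gate, 165 to 291 in the Cd4 gate and 116 to 221 in the Trdc gate, where the 3 epithelial sums alone could be left out. In all T cells 4872 genes were called with no condition on Epcam and Cd79a, in the Cd4 gate 158 by DESeq2, and in the Trdc gate 370 with no low-count filter. The test of WT against KO and het gave 0 calls with no library block, 20 by DESeq2 and 127 with no low-count filter, against 5. With no condition on Epcam and Cd79a the log2 ratio reversed for Rbp2 (-0.50), Fdps (-0.42), Cd79b (-2.49), Defa24 (1.40) and Kit (1.30). Values not past the threshold also reversed. With sums left out Ifng ran from -0.80 to 0.37, Tbx21 from -0.0468 to 0.48 and Kit, a mast cell receptor, from -0.27 to 0.0878. Kit also reversed on library sizes alone (0.19), with no low-count filter (0.0735) and with 3 genotypes in 1 fit (0.00659). Shares, as epithelium minus lamina propria in percentage points, reversed for Foxp3 thinned to 500 molecules (0.0711), Ifng with no thinning (2.32) and Mki67 with the WT hashtag at 80% or more (0.052). With each sum left out they ran from -1.46 to 0.427 for Mki67 and from -0.103 to 3.73 for Trac. A gate of cells with 0 Jchain molecules was not run, since it left 0, 1 and 0 lamina propria cells. The lamina propria sums of 162022 to 346300 molecules limit what low genes can show, where a count of 0 over the group allows up to 3 molecules. The causes of these changes were not tested.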
